A study of Mus musculus with 3 samples.

Results

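*Grhl2*, *Grhl3*, *Cldn3*, *Cldn4*, *Cldn6*, *Cldn7*, *Epcam*, *Krt8*, *Krt18* and *Krt19* are a set of grainyhead-like transcription factors, claudins, an adhesion molecule and simple keratins of the surface ectoderm. They were chosen by symbol from a list of epithelial genes, and all 10 were found among the 24062 gene symbols counted. RNA-Seq compared the anterior part of the head, or rostrum, of *tuft* embryos at E9 (18 to 22 somites) with the same tissue of their wild-type background strain, 3H1 Balb. The *tuft* mouse carries a nonsense mutation in *Tet1*, a methylcytosine dioxygenase, and the *tuft* embryos that were sequenced had curled neural folds. Libraries were made from the pooled RNA of 3 embryos, and each genotype was read here from 1 column of counts, so no spread between embryos was measured and no p-value is given. There are 2 *tuft* samples on record and 1 of wild type, and whether the *tuft* column, called the *tuft* library here, holds 1 of those samples or their sum could not be settled. The whole dissected tissue was used, and no cell type was isolated.

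The surface ectoderm is the non-neural epithelium that borders the neural folds and fuses over the closed neural tube. Its cells are held together by tight junctions, in which claudins are the membrane-spanning strands, by cadherin junctions, and by desmosomes anchored to keratin filaments. Grainyhead-like factors are DNA-binding activators of such epithelial genes, and mice without *Grhl2* or *Grhl3* are known for neural tube closure defects. *Epcam*, several claudins and the simple keratins are also made by endoderm, so they mark epithelium rather than surface ectoderm alone.

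The *tuft* library held 6433067 counts on genes and the wild-type library 14251942, a depth ratio of 2.22. Reads of *Tet1* itself numbered 32 for *tuft* against 435 for wild type, a fold of 0.214 (95% interval 0.145 to 0.307), so the mutated gene was low in the library labelled *tuft*. Levels are given as counts per 1000000 counts on genes (CPM) with exact Poisson intervals. Fold changes are *tuft* over wild type after TMM normalization, which lowered the effective size of the *tuft* library to 0.761 of its total, and carry exact binomial (Clopper-Pearson) intervals. All intervals are at 95% and cover counting error only, since each genotype had 1 column of counts. Reads without molecular identifiers are not independent molecules, so the intervals may be too narrow even for that error. A gene was called lower or higher when it was past 2-fold. By that rule 5336 of 13979 tested genes were lower in *tuft* and 2981 were higher, and the median log2 fold change over all tested genes was -0.46. Of all calls 64.2% were lower, against 74.5% with library totals alone and 36.3% with *Gapdh* as the only reference.

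The label of the set was checked against other genes of this epithelium. *Tfap2a* and *Tfap2b*, factors of the surface ectoderm and neural crest, were counted 268 and 242 times in *tuft* and 465 and 621 times in wild type. *Trp63*, the master factor of stratified epithelium, was counted 24 times in *tuft* and 59 times in wild type. *Krt5* and *Krt14*, the keratins of basal epidermis, were nearly absent: *Krt5* had 25 counts in wild type and 2 in *tuft*, and *Krt14* had 19 and 0. RNA of *Tfap2a*, *Tfap2b* and *Trp63* was therefore present in both genotypes, with very little of the basal keratins. Other epithelial factors were not counted in *tuft*: *Ovol1* and *Ovol2* had 0 counts there and 52 and 27 in wild type. Of 13 tested surface ectoderm and epithelial factors, 7 were lower and 3 higher past 2-fold, beside 38.2% and 21.3% of all tested genes.

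Of the 10 genes, 3 were lower in *tuft* past 2-fold (*Cldn3*, *Cldn7* and *Krt19*), and 38.2% of all tested genes were lower by the same rule. Only *Krt8* was higher past 2-fold, as were 21.3% of all tested genes. The other 6 were within 2-fold, and the median over the 10 genes was 0.04 on the log2 scale. The genes did not move as 1 block: their log2 fold changes ran from -3.27 for *Cldn3* to 1.65 for *Krt8*. In bulk tissue, fewer cells of a type and less RNA per cell cannot be told apart.

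**Figure D1:**
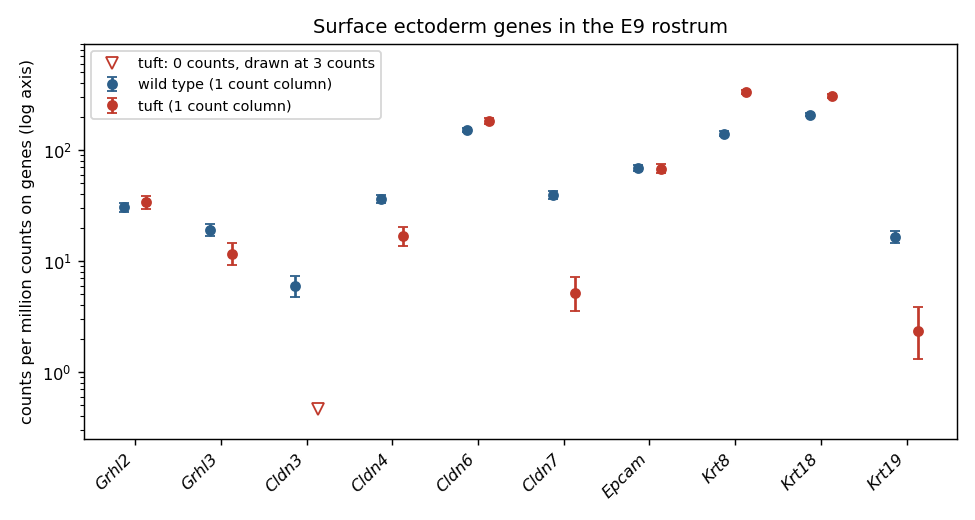
Level of each gene in the *tuft* and the wild-type library, in CPM on a log axis, with 95% Poisson intervals that cover counting error only; 1 column of counts per genotype. *Krt8* stood at 335 CPM in *tuft* and 141 in wild type, *Cldn7* at 5.13 and 39.1, and *Cldn3* had no count in *tuft* and is drawn as an open triangle at the level of 3 counts.

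The 2 grainyhead-like factors lay within 2-fold of wild type. *Grhl2*, which controls epithelial junction genes and is needed for cranial neural tube closure, was counted 219 times in *tuft* and 434 times in wild type. Its level was 34.0 CPM (29.7 to 38.9) in *tuft* and 30.5 CPM (27.7 to 33.5) in wild type. The fold was 1.47 (1.24 to 1.73), a log2 fold change of 0.56 that was 0.16 with library totals and 1.55 with *Gapdh*. *Grhl3*, which acts in spinal closure and in epidermal barrier formation, was counted 75 times in *tuft* and 270 times for wild type. These were 11.7 CPM (9.17 to 14.6) and 18.9 CPM (16.8 to 21.3), a fold of 0.809 (0.618 to 1.05) whose interval included 1. The sign for *Grhl3* turned when *Gapdh* was the reference, which put its log2 fold change at 0.69 in place of -0.31.

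The ratio of the 2 factors needs no scaling between libraries. There were 2.92 counts of *Grhl2* per count of *Grhl3* in *tuft* and 1.61 in wild type, so the ratio was 1.82-fold higher in *tuft* (1.33 to 2.50). *Grhl1*, the paralog known for desmosomal cadherin control in epidermis, was nearly absent from *tuft*, with 1 count against 30 in wild type. With a single count in *tuft* its fold was 0.0971, with an interval of 0.00238 to 0.584.

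*Cldn3*, *Cldn4*, *Cldn6* and *Cldn7* encode tight junction proteins of epithelia, and they split: 2 were lower past 2-fold and 2 were within 2-fold. *Cldn3* lies at chr5:134986214-134987476 (GRCm38, plus strand) and *Cldn4* at chr5:134945123-134946934 (minus strand), 39.3 kb apart. Both are receptors of the *Clostridium perfringens* enterotoxin. *Cldn3* was not counted in *tuft*, which with a floor of 3 counts allows up to 0.466 CPM, and had 84 counts or 5.89 CPM (4.70 to 7.30) in wild type. At that floor, and with the wild-type count as it stood, it was at least 9.62-fold lower in *tuft*. *Cldn4* was counted 107 times in *tuft* and 513 times in wild type, at 16.6 CPM (13.6 to 20.1) and 36.0 CPM (32.9 to 39.2). Its fold was 0.607 (0.488 to 0.749), a log2 fold change of -0.72 that was -1.11 with library totals and 0.28 with *Gapdh*. *Cldn3* was thus further from wild type than *Cldn4*. There were 0.164 counts of *Cldn3* per count of *Cldn4* in wild type and, at the same floor, at most 0.0280 in *tuft*. That ratio was at least 5.84-fold lower in *tuft*. On the other side of *Cldn3*, 21.7 kb away, *Abhd11* had a log2 fold change of -3.78 from 10 and 399 counts.

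*Cldn3* and *Cldn4* are shown first because they are neighbours with unequal folds, in a mutant of an enzyme that acts on methylated CpG. The windows run from 250 bases before to 50 bases after the RefSeq start (GRCm38.p6), 5′ to 3′ on the strand of the gene, with each CpG in capitals. The *Cldn4* window is chr5:134946885-134947184 on the minus strand and the *Cldn3* window is chr5:134985964-134986263 on the plus strand.
Cldn4: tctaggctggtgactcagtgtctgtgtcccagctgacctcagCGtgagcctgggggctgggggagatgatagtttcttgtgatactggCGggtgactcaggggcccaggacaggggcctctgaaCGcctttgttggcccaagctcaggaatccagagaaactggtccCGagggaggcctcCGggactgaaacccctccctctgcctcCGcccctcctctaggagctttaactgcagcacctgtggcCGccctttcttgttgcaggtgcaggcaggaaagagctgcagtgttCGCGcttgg
Cldn3: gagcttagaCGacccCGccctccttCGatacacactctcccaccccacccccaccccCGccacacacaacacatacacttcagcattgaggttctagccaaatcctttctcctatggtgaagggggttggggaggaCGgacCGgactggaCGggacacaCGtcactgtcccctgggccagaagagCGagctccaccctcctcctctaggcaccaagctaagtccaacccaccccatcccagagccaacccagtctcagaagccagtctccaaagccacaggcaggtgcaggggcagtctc
Each window held 9 CpG, against a median of 7 and quartiles of 3 and 20 over 32851 RefSeq promoter windows. Methylation was not measured in these libraries.

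*Cldn6*, a claudin of early embryonic epithelia, was the most abundant claudin of the set in both libraries. Its counts were 1170 for *tuft* and 2169 for wild type, or 182 CPM (172 to 193) and 152 CPM (146 to 159). Its fold of 1.57 (1.46 to 1.69) was above 1 under all 4 other scalings. *Cldn6* lies at chr17:23679348-23682446. *Cldn9*, 0.138 kb from it, was counted 0 times in *tuft* and 89 times in wild type. On the other side of *Cldn6*, 1.90 kb away, *Tnfrsf12a* had a log2 fold change of 0.88 from 76 and 120 counts.

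*Cldn7*, which also binds EpCAM at lateral membranes, was counted 33 times in *tuft* and 557 times in wild type. These were 5.13 CPM (3.53 to 7.20) and 39.1 CPM (35.9 to 42.5). *Cldn7* was 5.80-fold lower in *tuft* (4.08 to 8.51). Its locus is chr11:69964779-69967886, and the next gene, *Elp5*, 0.338 kb away, had a log2 fold change of -0.23 from 474 and 1620 counts. The gene on the other side of *Cldn7*, *Slc2a4*, 16.6 kb away, had a log2 fold change of -5.6 from 1 and 141 counts. Per count of *Cldn7* there were 35.5 counts of *Cldn6* in *tuft* and 3.89 in wild type, a ratio that was 9.10-fold higher in *tuft* (6.35 to 13.5). Summed over the 4 claudins, *tuft* had 1310 counts and wild type 3323, most of them of *Cldn6*, and the fold was 1.15 (1.08 to 1.22) after TMM. Before it, their summed level was 204 CPM in *tuft* and 233 CPM in wild type, so the direction of the sum turned with library totals.

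*Epcam* encodes an epithelial adhesion molecule and lies at chr17:87635979-87651127. It was counted 435 times in *tuft* and 975 times in wild type, at 67.6 CPM (61.4 to 74.3) and 68.4 CPM (64.2 to 72.8). The TMM fold was 1.30 (1.16 to 1.46), and with library totals its log2 fold change was -0.02. *Cdh1*, or E-cadherin, the cadherin of epithelial junctions and a known *Grhl2* target, was 4.36-fold lower (3.71 to 5.15), with 162 and 2057 counts. There were 2.69 counts of *Epcam* per count of *Cdh1* in *tuft* and 0.474 in wild type, so the ratio was 5.67-fold higher in *tuft* (4.64 to 6.93). These epithelial adhesion genes were therefore at unequal folds within the same libraries.

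*Krt8* and *Krt18* encode the type II and type I keratins that pair in the filaments of simple epithelia, and they lie 23.9 kb apart at chr15:101996711-102004342 (minus strand) and chr15:102028216-102032026 (plus strand). *Krt8* had more counts in the shallower library: 2158 in *tuft* and 2003 in wild type. Its level was 335 CPM (321 to 350) against 141 CPM (134 to 147), and it was 3.14-fold higher in *tuft* (2.95 to 3.34). *Krt18* was counted 1965 times in *tuft* and 2964 times in wild type, or 305 CPM (292 to 319) and 208 CPM (201 to 216). Its fold of 1.93 (1.82 to 2.04) had an interval that spanned the 2-fold limit. Both genes of the pair were thus above wild type, and not equally: there were 1.10 counts of *Krt8* per count of *Krt18* in *tuft* and 0.676 in wild type, which differ 1.63-fold (1.49 to 1.77). Pseudogenes were looked for only by a symbol ending in -ps, which found 1 for *Krt8*, *Krt8-ps*, and 0 for *Krt18*. Reads of *Krt8* may be shared with *Krt8-ps*. Pseudogenes under other symbols were not searched for either gene.

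The windows of this keratin pair are given for the same comparison, with CpG in capitals: *Krt8* at chr15:102004293-102004592 on the minus strand and *Krt18* at chr15:102027966-102028265 on the plus strand.
Krt8: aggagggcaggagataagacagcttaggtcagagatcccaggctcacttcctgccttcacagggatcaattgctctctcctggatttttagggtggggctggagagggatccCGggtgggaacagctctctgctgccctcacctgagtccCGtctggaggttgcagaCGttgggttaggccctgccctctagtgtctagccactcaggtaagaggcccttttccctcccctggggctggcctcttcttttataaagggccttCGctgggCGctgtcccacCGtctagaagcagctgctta
Krt18: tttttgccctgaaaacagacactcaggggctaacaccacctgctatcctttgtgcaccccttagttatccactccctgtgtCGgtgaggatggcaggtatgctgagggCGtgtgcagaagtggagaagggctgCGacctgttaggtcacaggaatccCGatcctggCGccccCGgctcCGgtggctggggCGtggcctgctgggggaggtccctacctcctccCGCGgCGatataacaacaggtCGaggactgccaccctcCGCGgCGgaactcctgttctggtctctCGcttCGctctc
The *Krt8* window held 6 CpG and the *Krt18* window 17. Over the 8 members with a RefSeq window, which number 9 because *Cldn7* has a pair, CpG counts ran from 6 to 17. *Grhl2* and *Krt19* had no window. The grainyhead consensus AACCGGTT was in 0 of 9 windows and in 0.146% of all windows, and its relaxed form AACNNGTT was in 0 of 9 and in 1381 of the 32851. The letters TATAAA were found in the *Krt8* window alone, against 13.6% of all windows, and the GC box GGGCGG in 6 of 9, against 35.7%. Both strands were searched, and every AACCGGTT is also an AACNNGTT. A match is a description of letters and not a binding site.

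*Krt19*, a type I keratin of simple and ductal epithelia, went the other way from *Krt8* and *Krt18*. It was counted 15 times in *tuft* and 234 times in wild type, at 2.33 CPM (1.31 to 3.85) and 16.4 CPM (14.4 to 18.7). *Krt19* (chr11:100140810-100145926) was 5.36-fold lower in *tuft* (3.18 to 9.73). There were 0.00695 counts of *Krt19* per count of *Krt8* in *tuft* and 0.117 in wild type, 16.8-fold lower in *tuft* (9.93 to 30.6). Summed over the 3 keratins, *tuft* had 4138 counts and wild type 5201, a fold of 2.32 (2.22 to 2.41).

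**Figure D2:**
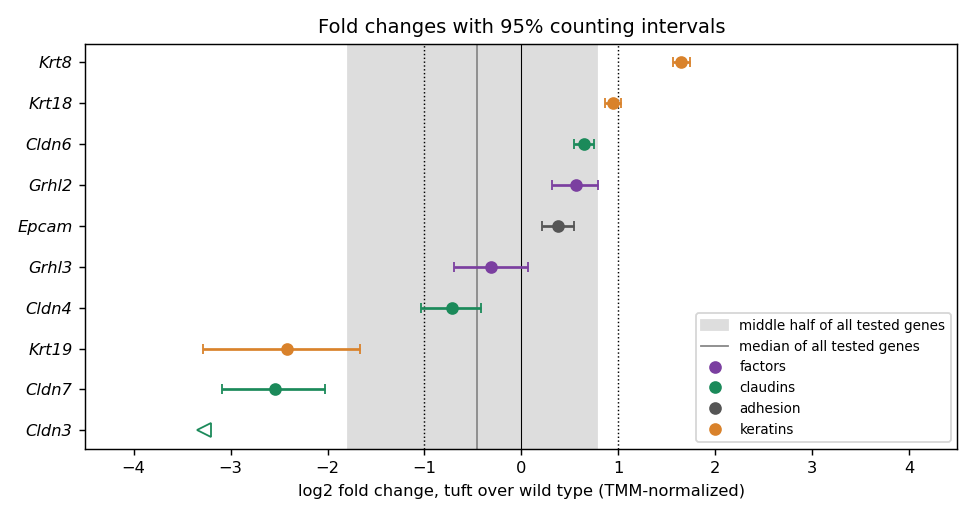
Log2 fold change of each gene, *tuft* over wild type after TMM normalization, with 95% counting intervals. The open triangle for *Cldn3* marks a bound at 3 counts, the grey band the quartiles of all tested genes (-1.79 to 0.78), the grey line their median and the dotted lines 2-fold. *Cldn3*, *Cldn7* and *Krt19* lay below -1, *Krt8* lay above 1 at 1.65, and *Krt18* reached 0.95.

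Because the genes differ in length, their order within a library was taken from CPM per kb of exon. In *tuft* the order was *Krt18* (218 CPM per kb), *Krt8* (186), *Cldn6* (121), *Epcam* (33.1), *Cldn4* (9.19), *Grhl2* (6.18), *Grhl3* (4.18), *Cldn7* (2.63), *Krt19* (1.26) and *Cldn3* (0). The counting intervals of *Grhl3* and *Cldn7*, and of *Cldn7* and *Krt19*, overlapped. In wild type the order was *Krt18* (149), *Cldn6* (101), *Krt8* (77.9), *Epcam* (33.5), *Cldn7* (20.1), *Cldn4* (19.9), *Krt19* (8.85), *Grhl3* (6.79), *Grhl2* (5.53) and *Cldn3* (4.68). There *Cldn7* and *Cldn4*, *Grhl3* and *Grhl2*, and *Grhl2* and *Cldn3* overlapped. *Krt18* led and *Cldn3* was last in both libraries, while *Krt8* and *Cldn6* changed places and *Cldn7* went from the fifth to the eighth place.

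Shares of the summed counts on the 10 genes also need no scaling between libraries. *Krt8* and *Krt18* together took 66.7% of the 6177 counts in *tuft* and 48.7% of the 10203 in wild type. With *Cldn6* and *Epcam* the share was 92.7% and 79.5%. The other 6 genes shared 449 counts of *tuft* and 2092 of wild type, 7.27% and 20.5%. *Krt8* alone went from 19.6% in wild type to 34.9% in *tuft*, *Cldn7* from 5.46% to 0.534% and *Krt19* from 2.29% to 0.243%, while *Krt18* was at 29.1% and 31.8%. The counts of the set were thus more concentrated on its most abundant genes in *tuft*.

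**Figure D3:**
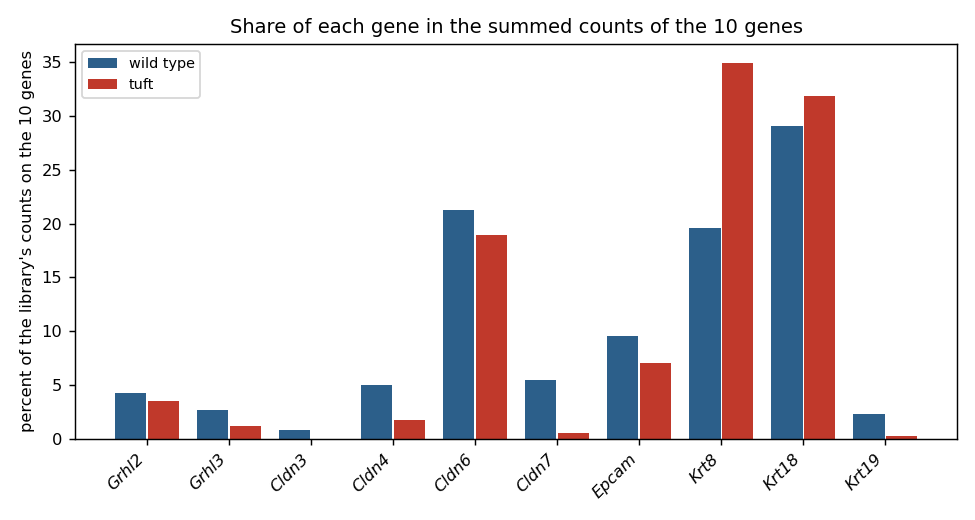
Share of each gene in the summed counts of the 10 genes, in percent, for the *tuft* and the wild-type library. *Krt8* took 34.9% in *tuft* and 19.6% in wild type, and *Cldn7* took 0.534% and 5.46%.

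Calls also went with abundance across all tested genes, and its part in the folds of the 10 genes was not tested. Genes were ordered by their mean level over both libraries, on the wild-type scale. That mean includes the *tuft* level that also sets the fold, so part of the trend is built in. Of 2641 genes below 3 CPM, the band of *Cldn3*, 64.6% were lower in *tuft*, 4.81% were higher and 74.9% had no count in *tuft*. In the band from 3 to 10 CPM, which holds *Krt19*, 60.8% of 1885 genes were lower. From 10 to 30 CPM, the band of *Grhl3*, *Cldn4* and *Cldn7*, 40.1% of 2934 genes were lower and 24.2% were higher. *Cldn6* and *Krt8* lay between 100 and 300 CPM, where 15.4% of 2005 genes were lower and 29.3% were higher. From 300 CPM up, with *Krt18*, 39.7% of 642 genes were higher. *Cldn3* and *Krt19* were thus in bands where lower genes were common, while the band of *Cldn7*, at 40.1%, was near the 38.2% of all tested genes. *Krt8* was in a band where higher genes outnumbered lower ones.

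**Figure D4:**
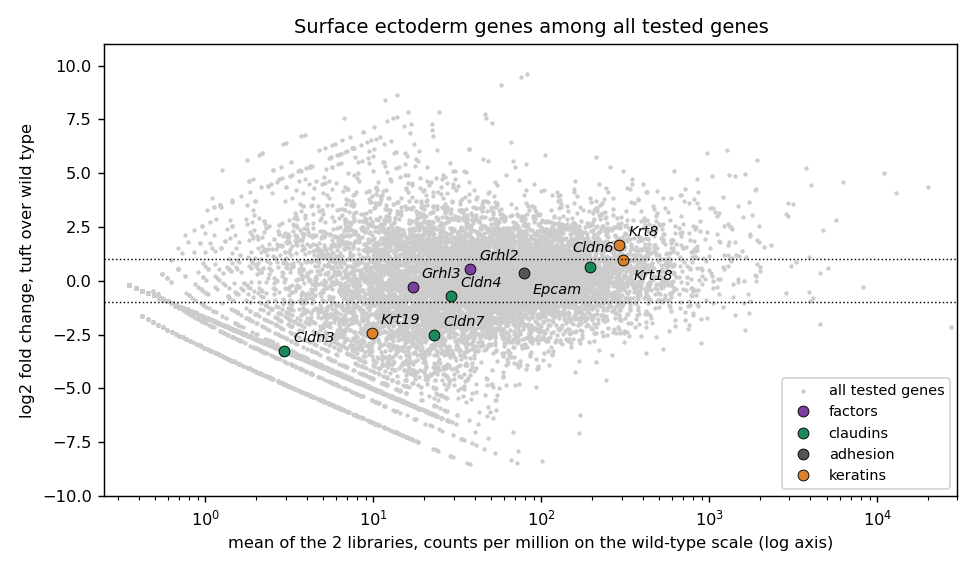
Log2 fold change of all 13979 tested genes against their mean level in CPM on a log axis, with the 10 genes named; counts of 0 are set to 3. Dotted lines mark 2-fold, *Cldn3*, *Krt19* and *Cldn7* lie below the lower one at mean levels under 30 CPM, and *Krt8* lies above the upper one between 100 and 300 CPM.

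Other epithelial genes were read from fixed lists, whose counts are to be set beside the 38.2% lower and 21.3% higher among all tested genes. Genes at 0 counts in *tuft* are bounded at the same floor of 3 counts. Of 13 tested surface ectoderm and epithelial transcription factors, 7 were lower in *tuft* and 3 were higher, with a median log2 fold change of -1.10 against -0.46 for all tested genes. That balance turned with *Gapdh* as the reference, to 4 lower and 6 higher. *Dlx3*, an ectodermal homeobox factor, was 2.91-fold lower with 30 and 254 counts. *Gata3* (105 and 61 counts) and *Elf3* (103 and 93) were 5.01-fold and 3.23-fold higher.

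Of 14 epithelial targets and partners of grainyhead factors, 9 were lower and 2 were higher, with a median of -1.80, and with library totals 11 were lower and 0 were higher. *Esrp1*, a splicing factor of epithelial cells, was counted 17 and 750 times and was 15.2-fold lower (9.40 to 26.1). *Rab25*, a GTPase of apical recycling, had 0 and 160 counts and was at least 18.3-fold lower. *Esrp2*, the paralog of *Esrp1*, was 2.61-fold higher with 112 and 125 counts, and *Spint2*, a protease inhibitor, 2.56-fold higher with 961 and 1091, calls that were both lost with library totals. *Grhl2* and *Grhl3* themselves were within 2-fold, and *Grhl1* was lower with 1 and 30 counts. Any link between the factors and these folds was not tested.

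Of 10 tested other claudins, 5 were lower and 1 was higher, with a median of -1.21. *Cldn2*, a pore-forming claudin, was counted 0 and 380 times and was at least 43.5-fold lower, whereas *Cldn12* was counted 589 and 1128 times, a log2 fold change of 0.60. Of 15 other tight junction genes, 5 were lower and 3 were higher, with a median of -0.41, or 33.3% and 20.0%, near the shares among all tested genes. *Ocln*, or occludin, was at least 15.6-fold lower (0 and 136 counts) and *Crb3*, an apical polarity gene, at least 16.5-fold lower (0 and 144). *F11r*, a junctional adhesion molecule, was 14.6-fold higher (4877 and 976) and *Marveld2*, or tricellulin, 2.95-fold higher (167 and 165).

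Of 11 other keratins 4 were tested, and 2 were lower and 1 was higher. *Krt10* was 9.86-fold higher with 447 and 132 counts, and *Krt7*, the usual type II partner of *Krt19* in ductal epithelia, had 244 and 884 counts and a log2 fold change of -0.32. Of 9 tested desmosome genes, 4 were lower and 2 were higher, with a median of -0.48, and with *Gapdh* as the reference 1 was lower and 4 were higher. *Dsp*, or desmoplakin, which ties keratin filaments to desmosomes, was 3.29-fold lower (131 and 1254 counts) and *Pkp2*, a plakophilin, 6.30-fold lower (26 and 477). *Ppl*, or periplakin, was 3.18-fold higher (239 and 219) and *Dsg2*, a desmosomal cadherin, 2.25-fold higher (194 and 251), a call lost with library totals.

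Markers of other tissues, among them endoderm that expresses some of the 10 genes, also differed between the libraries. Their part in the results was not tested. Of 15 yolk sac and visceral endoderm markers, 12 were lower in *tuft* and 1 was higher, with a median log2 fold change of -4.62. Their summed level was 299 CPM in *tuft* against 2521 CPM in wild type, with a fold of 0.156, and *Apoa2*, *Apoa4*, *Apoc2* and *Fgb* had no count in *tuft*. *Apoa4* and *Apoc2* were at least 327-fold and 158-fold lower and *Cubn* was 3.47-fold lower, whereas *Amn* was 2.01-fold higher, a call lost with library totals. Visceral endoderm is known to express *Epcam*, *Cdh1*, *Krt8* and *Krt18*. Of 8 gut endoderm markers, 3 were lower and 2 were higher, with a summed level of 286 CPM against 93.8 CPM, and *Hhex* and *Cdx2* had no count in *tuft*. Most of that sum in *tuft* came from *Nkx2-1* (119 CPM, 7.56-fold higher) and *Sox9* (144 CPM, 4.87-fold higher), which are also expressed in forebrain and in neural crest, respectively, while the median of the list was -0.64. Of 12 neuroectoderm markers, 0 were lower and 4 were higher, with a median of 0.26, against 2 lower and 4 higher with library totals and 0 lower and 9 higher with *Gapdh*. The higher ones were *Emx2* (6.43-fold), *Six3* (4.14-fold), *Hes5* (3.65-fold) and *Sox1* (3.16-fold). Of 14 mesenchyme and neural crest markers, 6 were lower and 3 were higher, with a summed level of 1640 CPM in *tuft* against 1956 CPM in wild type and a summed fold after TMM of 1.10. *Sox10* was 11.1-fold and *Col3a1* 4.29-fold higher, *Col1a1* was 6.30-fold lower and *Prrx2* at least 34.5-fold lower. Of 8 erythroid markers, 4 were lower and 3 were higher, with a summed level of 35525 CPM in *tuft* and 3209 CPM in wild type, nearly all of it globin. *Hbb-y* was 32.4-fold and *Hba-x* 17.1-fold higher, *Alas2* was 4.64-fold lower and *Gata1* at least 14.3-fold lower.

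**Figure D5:**
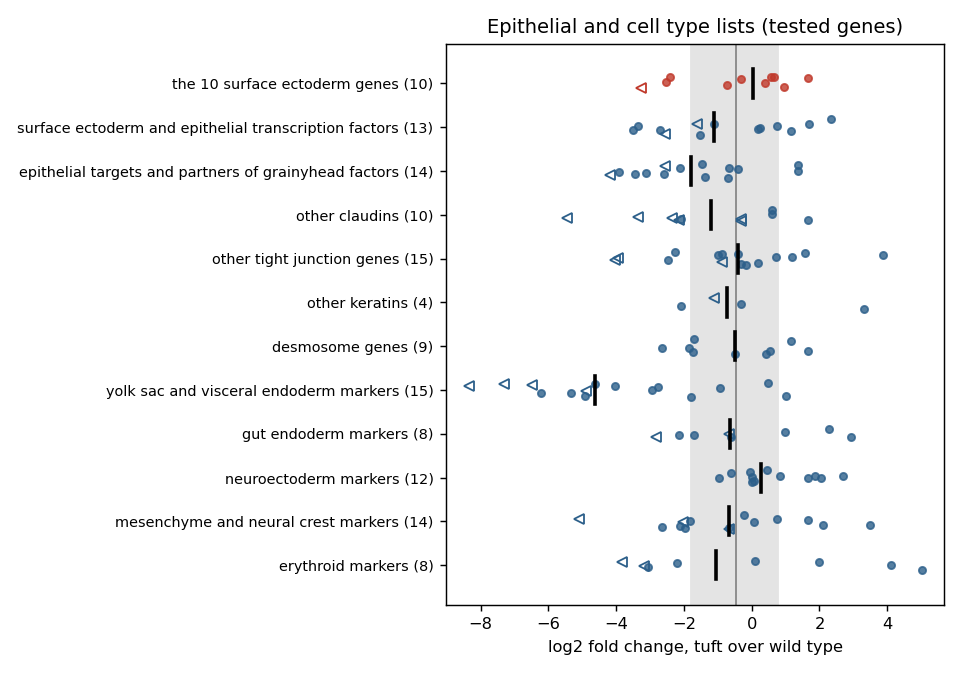
Log2 fold changes of the tested genes of each list, with the 10 surface ectoderm genes at the top and the number of tested genes in parentheses. Points are genes, open triangles are bounds at 3 counts, black bars are list medians, and the grey band and line are the quartiles and median of all tested genes. The 10 genes spread from -3.27 to 1.65 around a median of 0.04, the targets and partners of grainyhead factors around -1.80 and the yolk sac markers around -4.62.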

How the data were processed

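RNA of the rostrum was sequenced from *tuft* and 3H1 Balb wild-type embryos. The authors deposited raw counts per gene symbol, 1 column per genotype, and 1 column was matched to each genotype by name. Of the 2 *tuft* samples in the records, neither could be tied to the *tuft* column, which may hold 1 of them or both summed. Per the study's methods and the submitters' processing notes, poly-A-selected RNA was read single-end on an Ion Proton, trimmed with PRINSEQ, aligned to mm10 with TopHat2 2.0.14 and Bowtie2 2.2.5, sorted with SAMtools 0.1.18 and counted with HTSeq. Cufflinks 2.1.1 output was not used here. The HTSeq version, mode and strand setting are not given in the sources used here. Genes that overlap members (*Gm16136* at *Grhl2*, *Gm30888* at *Grhl3*, *Wbscr25* at *Cldn3*) could therefore share reads with them. Of these only *Wbscr25* was among the counted symbols, with 0 counts in both libraries. Whether reads of *Cldn3* were left out as ambiguous for that overlap was not tested.

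The 5 summary lines of each file were kept out of totals: not-unique alignments made up 59.2% of the *tuft* and 51.4% of the wild-type entries, 12.8% and 10.8% lay on no gene, and 0.667% and 0.526% were ambiguous. Python 3.11.15 with numpy 2.4.6, scipy 1.17.1 and pandas 2.3.3 was used, with TMM factors from edgeR 4.0.16 and size factors from DESeq2 1.42.0 in R 4.3.3. A single column of counts per genotype leaves edgeR's quasi-likelihood test without residual degrees of freedom, and the study's NOISeq-sim rests on simulated replicates, so a 2-fold rule was applied to genes whose summed count over both libraries was 10 or more. Counts of 0 were set to 3. The script was tested on simulated counts in which most genes were unchanged, unlike these libraries, so that test does not bear on the choice of scaling here. The 10 genes and the lists were chosen with earlier results of these data known. From each list, genes past 2-fold with at least 100 counts in 1 library were named, the extremes first and up to 4, plus *Cdh1*, *Grhl1* and *Tet1*. Some genes that this rule names are not reported here. The genes *Tfap2a*, *Tfap2b*, *Trp63*, *Krt5*, *Krt14*, *Krt7*, *Cldn12*, genes at 0 and genomic neighbours were added after their values were seen. Positions and promoter windows are RefSeq GRCm38.p6, the primary assembly of mm10. Exon lengths are unions of GENCODE exons on NCBIM37.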

Additional observations from a re-analysis of the deposited data

How the results depend on the processing

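Directions were compared under library totals, upper quartile, DESeq2 size factors and *Gapdh* as references, under other filters and under other folds. *Cldn3*, *Cldn7* and *Krt19* were lower past 2-fold under all 4 other scalings, and *Krt8* was higher. With *Gapdh* (86 counts in *tuft* and 499 in wild type), which moved all log2 fold changes by 0.99, 3143 genes were lower and 5510 higher, 5 of the 10 genes were higher (*Grhl2*, *Cldn6*, *Epcam* and *Krt18* besides *Krt8*), and 44 of 122 list genes were higher in place of 25. With library totals, which moved them by -0.39, *Cldn4* was lower past 2-fold as well. Under at least 100 counts in both libraries together, 3439 genes were lower, and *Cldn3* was not tested. At a fold of 1.5, 3 of the 10 genes were higher. At a fold of 4, 3138 genes were lower and 1286 higher, 0 of the 10 genes were higher and 11 list genes were higher. Log2 fold changes changed sign for *Grhl3* (0.69) and *Cldn4* (0.28) with *Gapdh* and for *Epcam* (-0.02) with library totals. No paired analysis was possible because each genotype had 1 column of counts, and no replicate could be left out. A gene at 0 counts in *tuft* was bounded at 0.466 CPM, the floor of 3 counts.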
